A study of Mus musculus with 4 samples.

Results

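The epithelial keratin genes Krt7, Krt8, Krt18, Krt19, Krt20 and Krt23 were measured in sections of mouse pancreas taken during acute pancreatitis. The members are the 6 features that carry these names among the 32285 features counted in each section, and all 6 had unique molecular identifiers (UMIs, the tags that mark single captured molecules) in every section. Levels of different keratins are not set against each other, since each gene is read by its own probes.

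Keratins are intermediate filament proteins that assemble as pairs of a type II keratin (Krt7, Krt8) and a type I keratin (Krt18, Krt19, Krt20, Krt23). Krt8 and Krt18 form the filaments of simple epithelia, including the acinar cells that make digestive enzymes, whereas Krt7 and Krt19 are known as keratins of pancreatic ducts. Krt19 is also a common marker of acinar cells that take on duct-like features during pancreatitis. Krt20 is known from intestinal and urothelial epithelium, and Krt23 is a less studied type I keratin found in glandular and stressed epithelium.

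All mice were 4-week-old C57Bl/6 animals that carried Pdx1-Cre, a Cre recombinase under a promoter active in the pancreatic epithelium, and all received 8 hourly doses of caerulein at 50 µg/kg after a 12 h fast, with tissue taken 18 h after the first dose. No untreated section was among the samples, so each value describes inflamed pancreas. The Ehmt2+/+ group (labelled PDX1-Cre (WT)) had 2 sections and the Ehmt2fl/fl group (labelled EHMT2 knockout (KO) PDX-Cre) had 2 sections. Ehmt2 encodes a histone H3 lysine methyltransferase, also called G9a, and its floxed alleles can be lost only in cells with a history of Pdx1-Cre, so stroma and immune cells keep the gene. Each section was placed on a CytAssist Visium slide, where a spot covers a small region that can hold several cells of different types. The replicate numbers come from no label, and which sections shared a slide was read from the deposited alignment files.

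Replicate 1 of each group lay on slide 1 and replicate 2 of each group on slide 2, while both Ehmt2+/+ sections used one capture area and both Ehmt2fl/fl sections the other, so capture area and genotype cannot be told apart. The 4 sections had 6144 to 7871 spots with at least 500 UMIs, and these held 6643747 to 43784930 UMIs. Ehmt2+/+ replicate 1 stood apart, with a median of 6327.5 UMIs a spot against 874 to 1113 in the other 3 sections. Digestive enzymes, taken as a list of 38 genes, made up 65.4% and 54.6% of the UMIs in Ehmt2+/+ replicates 1 and 2 and 22.9% and 22.1% in Ehmt2fl/fl replicates 1 and 2. The median of 1135 olfactory receptor genes, which the pancreas is not known to use and which serve here as a background, was 0.251 CPM (UMIs per 1000000 UMIs of the section) in Ehmt2+/+ replicate 1 and 4.97 to 12.6 in the other sections. In bulk sums of this kind, fewer cells of a type and less RNA per cell cannot be told apart. UMIs of 4 Y-linked genes numbered 2 and 0 in the Ehmt2+/+ sections and at least 256 in each Ehmt2fl/fl section, so sex and genotype cannot be told apart either. Ehmt2 itself was at 19.8 and 3.95 CPM in the Ehmt2+/+ sections and at 10.1 and 12.1 in the Ehmt2fl/fl sections. These levels did not separate the groups, and since 3 of them lay near the background of their section and the position of the probes in the deleted part is not given in the sources used here, they check no label.

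In the mouse genome (GRCm38, GENCODE vM21) the type II genes and Krt18 lie together on chromosome 15 and the other type I genes on chromosome 11. Krt7 is at chr15:101411043-101430313 on the plus strand, Krt8 at chr15:101996698-102004482 on the minus strand and Krt18 at chr15:102028180-102032027 on the plus strand. Krt8 and Krt18 therefore point away from each other across 23697 bases. RefSeq and GENCODE place the starts of Krt7, Krt8 and Krt18 differently, so for these genes the RefSeq stretch lies partly or wholly inside the GENCODE gene. Krt19 is at chr11:100140810-100148665, Krt20 at chr11:99428403-99438150 and Krt23 at chr11:99477974-99493137, all on the minus strand. The 250 bases before the RefSeq start (GRCm38.p6, written 5′ to 3′ on the strand of the gene) are printed for Krt7, Krt8, Krt18 and Krt20. Krt8 and Krt18 are the pair that followed the digestive enzymes most closely, Krt7 was lower in spots rich in them, and Krt20 was rare. Capitals mark matches to 4 short motifs, searched on either strand: the letters TATAAA, known as the TATA box, the letters GGGCGG, known as the GC box, the letters CCAAT, known as the CAAT box, and the letters TGANTCA, which the AP-1 factors bind.
Krt7 (chr15:101412153-101412402): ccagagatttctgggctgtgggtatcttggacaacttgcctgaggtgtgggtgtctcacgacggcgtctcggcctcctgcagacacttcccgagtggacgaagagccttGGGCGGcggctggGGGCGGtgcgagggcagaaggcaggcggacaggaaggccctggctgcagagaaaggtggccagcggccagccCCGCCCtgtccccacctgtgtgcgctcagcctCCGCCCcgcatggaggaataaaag
Krt8 (chr15:102004343-102004592): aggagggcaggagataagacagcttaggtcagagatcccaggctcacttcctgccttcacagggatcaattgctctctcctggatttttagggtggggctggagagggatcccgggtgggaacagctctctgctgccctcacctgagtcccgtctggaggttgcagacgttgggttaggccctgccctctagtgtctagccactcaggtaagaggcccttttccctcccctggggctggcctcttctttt
Krt18 (chr15:102027966-102028215): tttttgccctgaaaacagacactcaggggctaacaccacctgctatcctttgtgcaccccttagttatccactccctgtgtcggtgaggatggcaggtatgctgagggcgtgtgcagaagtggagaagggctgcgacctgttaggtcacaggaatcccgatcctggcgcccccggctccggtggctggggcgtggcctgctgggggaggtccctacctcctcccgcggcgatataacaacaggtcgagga
Krt20 (chr11:99438154-99438403): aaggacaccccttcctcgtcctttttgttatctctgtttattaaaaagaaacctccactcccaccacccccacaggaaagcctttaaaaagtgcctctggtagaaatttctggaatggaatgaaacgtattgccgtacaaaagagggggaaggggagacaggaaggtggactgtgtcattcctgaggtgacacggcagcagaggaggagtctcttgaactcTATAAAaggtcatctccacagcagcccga
The Krt7 stretch held 4 GC boxes, the nearest 24 bases before the start, and 66% of its bases were G or C. The Krt20 stretch held a TATA box that began 29 bases before the start, and its G and C content was 48%. None of the 4 motifs was found in the stretches of Krt8 and Krt18, whose G and C contents were 58% and 60.4%. Among 32851 stretches of the same length before all RefSeq starts, 12.4% held the TATA box, 32.7% the GC box, 33.9% the CAAT box and 6.75% the AP-1 element. A match is a description of letters, not a site in use.

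Krt8 and Krt18 were found in most spots of all 4 sections. Krt8 was at 1054 and 1035 CPM in Ehmt2+/+ replicates 1 and 2 and at 757 and 1130 in Ehmt2fl/fl replicates 1 and 2. The genotypes overlapped, since the highest and the lowest level were both in Ehmt2fl/fl sections. Krt18, its usual partner, was at 1585 and 1049 CPM in the Ehmt2+/+ sections and at 890 and 787 in the Ehmt2fl/fl sections. Both Ehmt2fl/fl levels of Krt18 were below both Ehmt2+/+ levels. At least 1 UMI of Krt8 was present in 93.1% and 60.7% of spots in the Ehmt2+/+ sections and in 50.5% and 63.6% in the Ehmt2fl/fl sections, and the shares for Krt18 were 95.1% and 60.3% against 54.1% and 52.6%. The deepest section, Ehmt2+/+ replicate 1, also held the spots with the most keratin, up to 74 UMIs of Krt8 and 100 of Krt18 in 1 spot, against at most 17 and 15 elsewhere.

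The keratins of ducts lay on opposite sides. Krt19 was at 167 and 258 CPM in the Ehmt2+/+ sections and at 166 and 133 in the Ehmt2fl/fl sections, and Ehmt2+/+ replicate 1 and Ehmt2fl/fl replicate 1 differed by a factor of 0.990 only. Krt7 was at 42.7 and 46.4 CPM in the Ehmt2+/+ sections and at 193 and 202 in the Ehmt2fl/fl sections. The fold of Ehmt2fl/fl over Ehmt2+/+ for Krt7 was 4.53 on slide 1 and 4.36 on slide 2, and the genotypes did not overlap. The summed level of a duct marker list without keratins (9 genes, among them Sox9 and Cftr) moved with it, at 40.3 and 94.4 CPM against 413 and 382. A macrophage list did too, at 71.9 and 122 against 767 and 628. Lists of fibroblast, mesothelium, fat, neutrophil and lymphoid genes were also higher in both Ehmt2fl/fl sections, as were 91.8% of 20053 genes. Lists of islet and injury genes overlapped. The part of such cells in the level of Krt7 was not tested. A UMI of Krt7 was seen in 24.3% (95% exact interval 23.2 to 25.4) and 4.48% (4.04 to 4.97) of spots in the Ehmt2+/+ sections and in 17.0% (16.1 to 17.9) and 20.8% (19.8 to 21.8) in the Ehmt2fl/fl sections. Such intervals cover counting error only.

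Krt20 and Krt23 were rare. Krt20 was at 20.3 and 18.9 CPM in the Ehmt2+/+ sections and at 49.5 and 50.1 in the Ehmt2fl/fl sections, above every olfactory receptor gene in all 4 sections. The margin was small on slide 2, where the highest olfactory receptor gene was at 16.8 CPM in Ehmt2+/+ and 43.3 in Ehmt2fl/fl. Krt20 was 80.6 times the median olfactory receptor gene in Ehmt2+/+ replicate 1 and 3.79 to 6.09 times that median in the other sections. Krt23 was at 14.5 and 11.5 against 32.4 and 35.9 CPM. Krt23 was 57.8 times the median olfactory receptor gene in Ehmt2+/+ replicate 1 but 2.31 to 3.98 times that median in the other sections, so its level there rests on little more than background. With the median olfactory receptor level taken off, the Ehmt2fl/fl over Ehmt2+/+ fold on slides 1 and 2 was 2.07 and 2.70 for Krt20, 1.70 and 3.59 for Krt23 and 4.36 and 4.57 for Krt7.

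**Figure D1:**
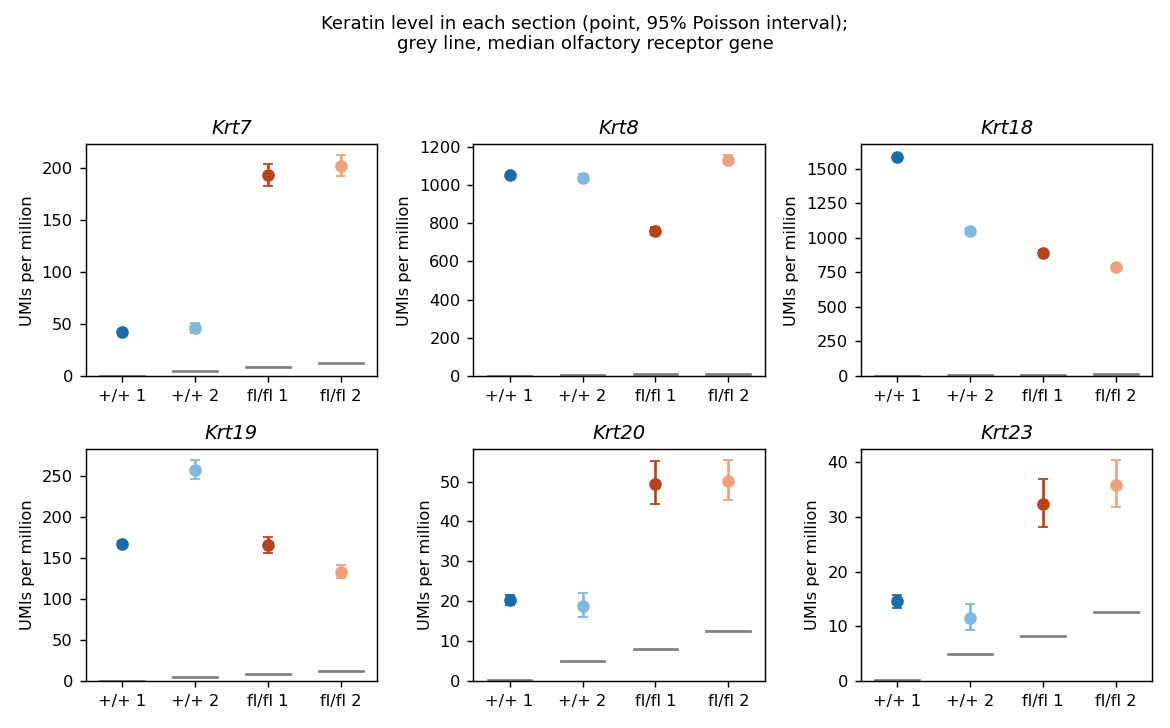
CPM of each keratin (y axis, linear from 0) in the spots with at least 500 UMIs of each section (x axis), with 95% Poisson intervals; grey lines give the median olfactory receptor gene of the section. Krt7, Krt20 and Krt23 lay higher in both Ehmt2fl/fl sections, Krt18 and Krt19 lay lower, and Krt8 overlapped.

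These levels have to be read against the whole table, in which 91.8% of 20053 genes had a higher CPM in both Ehmt2fl/fl sections than in both Ehmt2+/+ sections, and 0.778% had a lower level in both. The median gene was 9.42-fold higher in Ehmt2fl/fl on slide 1 and 2.24-fold higher on slide 2. Krt7, Krt20 and Krt23 therefore shared their direction with most genes, and on slide 1 the folds of all 3 (4.53, 2.44 and 2.23) were below that of the median gene, while on slide 2 all 3 (4.36, 2.66 and 3.13) were above it. Krt18 and Krt19 were on the side of the few. Over the UMIs left after the digestive enzymes were taken out, 45.8% of 20020 genes were higher in both Ehmt2fl/fl sections and 6.71% were lower. On this scale, called non-enzyme CPM from here on, Krt8 was at 3047 and 2279 in the Ehmt2+/+ sections and at 982 and 1452 in the Ehmt2fl/fl sections, and Krt18 was at 4585 and 2310 against 1155 and 1010. Krt19 was at 484 and 568 against 215 and 171, whereas Krt7 was at 123 and 102 against 251 and 259. The genotypes did not overlap for these 4 genes or for Krt20, and they overlapped for Krt23.

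Tested across all genes, no keratin passed the test between the genotypes. With edgeR's quasi-likelihood test 0 of the 6 members passed an adjusted p of 0.05, where 0.110% of 20053 genes did (22 genes, and 1059 at an unadjusted p under 0.05). The log2 differences of Ehmt2fl/fl from Ehmt2+/+ were -2.28 ± 1.41 (SE) for Krt8, -2.89 ± 1.498 for Krt18 and -2.41 ± 1.15 for Krt19 (edgeR adjusted p = 0.863 for each). They were 0.08 ± 0.99 for Krt7 (edgeR adjusted p = 0.971), -0.78 ± 0.85 for Krt20 and -0.80 ± 0.77 for Krt23. The median over all genes was 0.25 and that over the members -1.54. With slide as a block the differences were -2.04, -2.48 and -2.34 for Krt8, Krt18 and Krt19 and 0.29 for Krt7, and again no member passed. A p over the threshold does not show that levels were alike in the genotypes.

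That outcome changed with the tool, with the scale and when Ehmt2+/+ replicate 2 was left out. DESeq2 called Krt8, Krt18 and Krt19 lower in Ehmt2fl/fl (DESeq2 adjusted p = 0.0382, 0.0122 and 0.0192), where 1.37% of all genes were called lower. Without TMM factors, which weight the library sizes by the bulk of the genes, edgeR called Krt7 higher (log2 difference 2.15, edgeR adjusted p = 0.0230), where 1.93% of all genes were called higher, and Krt20 and Krt23 turned to 1.35 and 1.39. These factors were 0.288 and 0.957 in Ehmt2+/+ replicates 1 and 2 and 1.71 and 2.13 in Ehmt2fl/fl replicates 1 and 2. They lay apart between the genotypes, and the edgeR differences above rest on them. In CPM, which uses no such factor, the Ehmt2fl/fl over Ehmt2+/+ fold of Krt8 was 0.718 on slide 1 and 1.09 on slide 2. Without Ehmt2+/+ replicate 2, so against Ehmt2+/+ replicate 1 alone, all members but Krt7 were called lower, as were 36.3% of all genes. Without Ehmt2+/+ replicate 1, none was called, Krt8, Krt18 and Krt19 were at -1.12, -1.27 and -1.73, and Krt7, Krt20 and Krt23 were at 1.13, 0.44 and 0.61.

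Shares of spots were compared after each spot was thinned, by calculation, to 500 UMIs, so that depth was the same everywhere. At that depth Krt8 was expected in 41.1% and 40.2% of spots in the Ehmt2+/+ sections and in 30.3% and 39.6% in the Ehmt2fl/fl sections. Krt18 was at 52.0% and 40.2% against 33.8% and 29.8%, and Krt19 at 7.88% and 12.2% against 7.79% and 6.23%. Krt7 was at 2.28% and 2.53% against 8.93% and 9.56%, Krt20 at 0.919% and 0.924% against 2.31% and 2.18%, and Krt23 at 0.764% and 0.607% against 1.59% and 1.86%. The genotypes did not overlap for any of the 6, with 3 members on the higher side, where 90.4% of all genes lay, and 3 on the lower side, where 0.803% lay. The margin was narrow for Krt8 and for Krt19, whose nearest sections differed by less than 1 percentage point. At 1000 UMIs a spot, among the spots with at least that many, the genotypes overlapped for these 2 genes. A two-sided exact permutation test gave p = 0.333 for each member, the smallest value that 2 against 2 sections allow.

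The ratio of 2 keratins within a section needs no library size. There were 0.255 (95% interval 0.242 to 0.268) and 0.180 (0.160 to 0.201) UMIs of Krt7 for each UMI of Krt19 in the Ehmt2+/+ sections, and 1.17 (1.08 to 1.27) and 1.51 (1.40 to 1.64) in the Ehmt2fl/fl sections. The Ehmt2fl/fl ratio was 4.57-fold the Ehmt2+/+ ratio on slide 1 and 8.42-fold on slide 2. In CPM, the Ehmt2fl/fl over Ehmt2+/+ fold of Krt19 was 0.990 and 0.517 on these slides, and that of the median gene 9.42 and 2.24. A higher ratio to Krt19 in Ehmt2fl/fl was therefore shared with most genes. For Krt18 to Krt8 the ratios were 1.505 and 1.01 in the Ehmt2+/+ sections and 1.18 and 0.696 in the Ehmt2fl/fl sections. The Krt18 to Krt8 ratio was lower in Ehmt2fl/fl on each slide (0.781-fold and 0.687-fold), but the genotypes overlapped, and replicate 2 had the lower ratio in both genotypes. The exact permutation test over sections (two-sided) gave p = 0.333 for Krt7 to Krt19 and 0.667 for Krt18 to Krt8. These ratios were chosen after the values had been seen.

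The level of Krt8, Krt18 and Krt19 followed the digestive enzymes from spot to spot. In every section the level of each of the 3, in non-enzyme CPM, was lower in enzyme-poor spots (under 30% of UMIs from the enzyme list) than in enzyme-rich spots (at least 50%). Krt18 was at 1001 in the enzyme-poor and 4620 in the enzyme-rich spots of Ehmt2+/+ replicate 1, at 677 and 2696 in Ehmt2+/+ replicate 2, at 922 and 2561 in Ehmt2fl/fl replicate 1 and at 790 and 2328 in Ehmt2fl/fl replicate 2. Krt8 went from 586, 681, 838 and 1208 in the enzyme-poor spots to 3068, 2543, 1820 and 2638 in the enzyme-rich spots, in the same order of sections. Krt19 went from 113, 227, 181 and 140 to 488, 643, 278 and 427. Of these Krt19 values, 113 rests on 6 UMIs, 278 on 9 and 427 on 22. Krt20 had a lower value in the enzyme-poor spots of all 4 sections, but from 1 and 5 UMIs in those of the Ehmt2+/+ sections and from 3 and 12 UMIs in the enzyme-rich spots of the Ehmt2fl/fl sections.

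Krt7 was higher in the enzyme-poor than in the enzyme-rich spots of all 4 sections. It was at 397, 157, 257 and 252 non-enzyme CPM in the enzyme-poor spots and at 122, 92.8, 123 and 136 in the enzyme-rich spots. The first value rests on 21 UMIs of Krt7, and the last 2 on 4 and 7 UMIs. The islet list was at 231746 non-enzyme CPM in the enzyme-poor spots of Ehmt2+/+ replicate 1, against 1423 to 10556 in the other sections. Its part in the Krt7 value there was not tested. Krt23 had no UMI in the enzyme-poor spots of Ehmt2+/+ replicate 1 or in the enzyme-rich spots of Ehmt2fl/fl replicate 1, and its order differed between sections. The classes were unequal in size, with 22 enzyme-poor spots in Ehmt2+/+ replicate 1 and 54 and 60 enzyme-rich spots in the Ehmt2fl/fl sections. Over the 4 sections the mean log2 ratio of enzyme-poor to enzyme-rich spots was -1.63 ± 0.62 (SD, n = 4) for Krt8, -1.81 ± 0.35 for Krt18, -1.46 ± 0.62 for Krt19, -1.53 ± 0.65 for Krt20 and 1.10 ± 0.42 for Krt7. An exact sign permutation over 4 sections cannot go below p = 0.125, which each of these 5 genes reached.

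**Figure D2:**
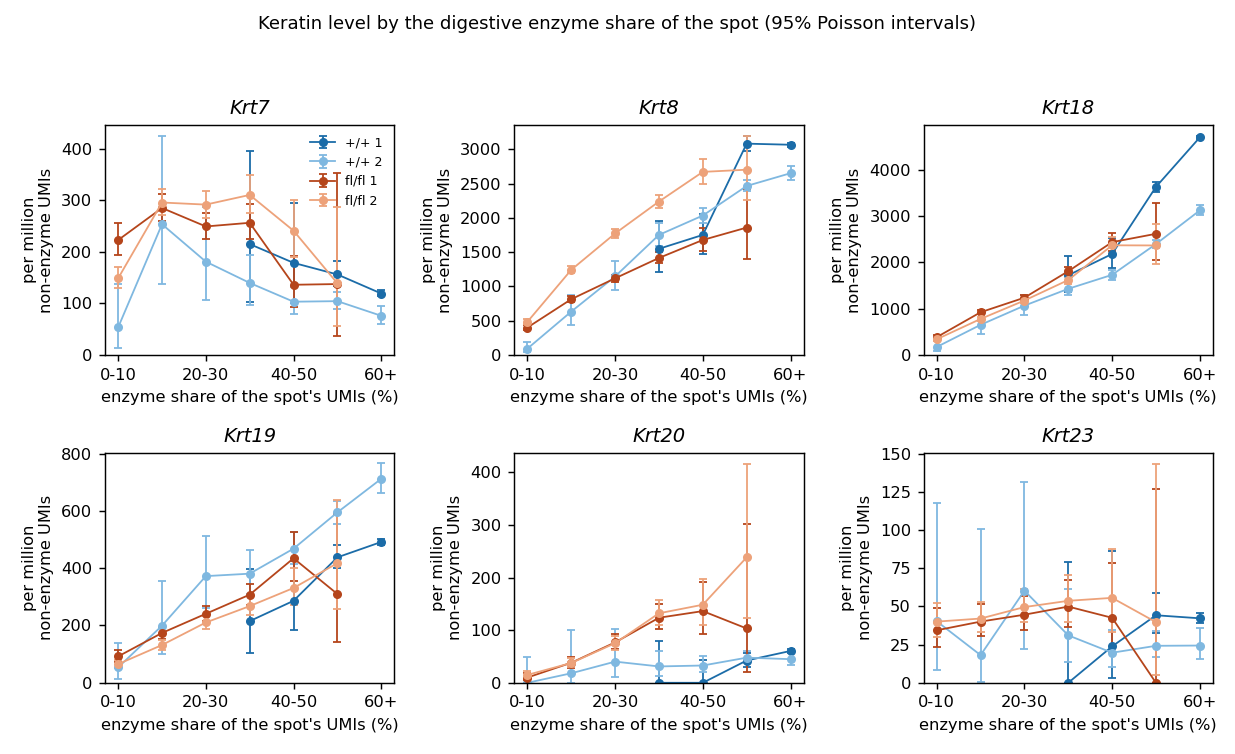
Level of each keratin in non-enzyme CPM (y axis, linear from 0) in spots grouped by the share of their UMIs from digestive enzymes (x axis, steps of 10%), with 95% Poisson intervals; groups of under 20 spots are not drawn. In each section Krt8, Krt18 and Krt19 were lowest in the lowest group drawn, and Krt7 was lower at the highest group drawn than at 30 to 40%.

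Krt18 had larger values at the upper steps of enzyme share than at the lowest. It went from 386 non-enzyme CPM at 0 to 10% to 2436 at 40 to 50% in Ehmt2fl/fl replicate 1, from 341 to 2368 in Ehmt2fl/fl replicate 2 and from 175 to 1731 in Ehmt2+/+ replicate 2, and it was at 2181 at 40 to 50% in Ehmt2+/+ replicate 1. In the 50 to 60% step Ehmt2+/+ replicate 1 stood above the others, at 3628 against 2365 to 2616. Krt7 was highest in the 10 to 20% step of Ehmt2fl/fl replicate 1, at 285, and in the 30 to 40% step of Ehmt2fl/fl replicate 2, at 310. It was at 119 and 76.2 in spots with at least 60% enzyme UMIs of Ehmt2+/+ replicates 1 and 2. It did not fall steadily with enzyme share, since at 0 to 10% it was at 223 and 149 in Ehmt2fl/fl replicates 1 and 2. In Ehmt2+/+ replicate 2 it was at 53.7 at 0 to 10% and at 254 at 10 to 20%.

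In the fit across 19637 genes, with section as a block and the enzyme genes left out, Krt8, Krt18 and Krt19 passed the test and were lower in enzyme-poor spots, where 0.362% of all genes were. The log2 differences were -1.76 ± 0.45 for Krt8 (edgeR adjusted p = 0.0121), -1.95 ± 0.45 for Krt18 (edgeR adjusted p = 0.00237) and -1.60 ± 0.46 for Krt19 (edgeR adjusted p = 0.0422). Krt20 was at -1.69 ± 0.52 (edgeR adjusted p = 0.0734), Krt7 at 0.88 ± 0.46 (edgeR adjusted p = 0.320) and Krt23 at 0.05 ± 0.58. The median over all genes was 0.49, on the same side as Krt7. No interaction of this contrast with genotype was called for the 6 (interaction term, edgeR adjusted p from 0.440 to 0.992). It was called for 0 of all 19637 genes, so the lack of a call does not show that the contrast was alike in the genotypes. Of the 6 members, none was called without Ehmt2+/+ replicate 1, without Ehmt2+/+ replicate 2 or without Ehmt2fl/fl replicate 2. Their log2 differences there were -1.39 to -2.01 for Krt8, -1.68 to -2.10 for Krt18 and -1.34 to -1.61 for Krt19. Calls were fewer among all genes too, with 8 of 19552, 23 of 19619 and 16 of 19088 called lower, in the same order. Without Ehmt2fl/fl replicate 1, 4 members were called lower, Krt20 among them, as were 109 of 19536 genes.

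Spots of intermediate enzyme share were also compared, since the genotypes differed so much in that share. In spots with 30% to 50% enzyme UMIs (95 and 1970 spots in the Ehmt2+/+ sections, 1477 and 1209 in the Ehmt2fl/fl sections), Krt18 was at 2017 and 1641 non-enzyme CPM in Ehmt2+/+ and at 1941 and 1812 in Ehmt2fl/fl. Krt8 was at 1680 and 1951 against 1471 and 2350, and Krt19 at 261 and 442 against 334 and 284. The genotypes overlapped for all 3, unlike on the scale of all spots. Krt7 was apart over this range, at 192 and 114 against 231 and 293. Krt20 was at 0 and 32.3 against 126 and 136, from 0 and 28 UMIs against 141 and 171. Krt23 was at 15.3 and 23.1 against 48.4 and 54.2. In its 30 to 40% and 40 to 50% steps it had 0 and 2 UMIs in Ehmt2+/+ replicate 1 and 8 and 12 in Ehmt2+/+ replicate 2. It had 44 and 10 in Ehmt2fl/fl replicate 1 and 50 and 18 in Ehmt2fl/fl replicate 2. In these spots 13.6% of 20020 genes were higher in both Ehmt2fl/fl sections and 10.0% were lower in both, and the median olfactory receptor gene was at 0 and 13.9 against 8.06 and 12.0. Within the range the shares were not equal, since 30 and 566 of these Ehmt2+/+ spots but 1151 and 916 of the Ehmt2fl/fl spots had 30 to 40% enzyme UMIs. In the 40 to 50% step Krt7 overlapped between the genotypes, at 179 and 103 in Ehmt2+/+ and at 136 and 241 in Ehmt2fl/fl, and Krt18 was higher in both Ehmt2fl/fl sections, at 2181 and 1731 against 2436 and 2368. In the 30 to 40% step Krt7 was apart, at 215 and 140 against 256 and 310, and Krt18 overlapped, at 1722 and 1430 against 1809 and 1619. Krt20 was higher in both Ehmt2fl/fl sections in each step.

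Marker lists of other cells did not all move the same way in these spots. In non-enzyme CPM, the duct list was at 176 and 250 in the Ehmt2+/+ sections and at 526 and 513 in the Ehmt2fl/fl sections. The macrophage list was at 353 and 351 against 678 and 537. A mesothelium list was lower in both Ehmt2fl/fl sections, at 130 and 169 against 93.2 and 116. A fibroblast list overlapped, at 5047 and 1687 against 2110 and 1818, as did lists of fat and gut epithelium genes. The islet list was at 92825 in the 95 spots of Ehmt2+/+ replicate 1 and at 734 to 3114 in the other sections. Their part in the values of Krt7, Krt20 and Krt23 was not tested. The Krt7 to Krt19 ratio of these spots in Ehmt2fl/fl was 0.941-fold that in Ehmt2+/+ on slide 1 and 3.99-fold on slide 2. In enzyme-rich spots the folds were 1.78 and 2.21, from 4 and 7 UMIs of Krt7 in the Ehmt2fl/fl sections, and in enzyme-poor spots 0.406 and 2.61. On each slide all 3 folds were smaller than the fold over all spots (4.57 and 8.42).

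**Figure D3:**
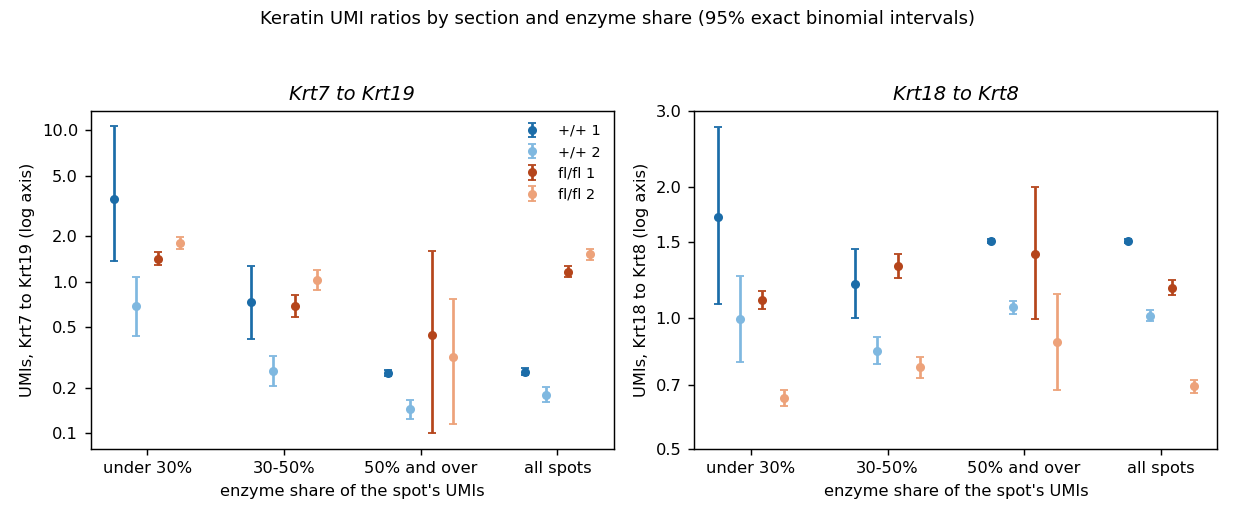
UMIs of Krt7 for each UMI of Krt19 (left) and of Krt18 for each UMI of Krt8 (right), on log axes, in 3 ranges of enzyme share and in all spots; points are sections and bars are 95% exact binomial intervals. Over all spots the Krt7 to Krt19 ratio was 0.255 and 0.180 in Ehmt2+/+ and 1.17 and 1.51 in Ehmt2fl/fl, while within a range of enzyme share the sections lay closer or overlapped.

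Krt8 and Krt18 shared spots with Krt19 and Krt7 about as often as their separate frequencies would give in the Ehmt2+/+ sections, and somewhat more often in the Ehmt2fl/fl sections. Without thinning, 61.6% and 23.7% of Krt8 spots also held Krt19 in the Ehmt2+/+ sections and 18.2% and 17.7% in the Ehmt2fl/fl sections. For Krt7 the shares of Krt8 spots were 25.5% and 4.65% against 19.1% and 24.5%. Seen from the other side, 97.6% and 64.96% of Krt19 spots held Krt8 in Ehmt2+/+ and 60.6% and 78.4% in Ehmt2fl/fl. These shares move with the depth of the section, and the median olfactory receptor gene had a UMI in 0.179% to 1.52% of spots.

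At 500 UMIs a spot, 7.89% and 12.3% of Krt8 spots held Krt19 in the Ehmt2+/+ sections and 8.99% and 7.22% in the Ehmt2fl/fl sections, and 8.09% and 12.4% against 8.98% and 7.26% of Krt18 spots did. Krt7 was in 2.27% and 2.55% of Krt8 spots in Ehmt2+/+ and in 9.69% and 10.6% in Ehmt2fl/fl, and in 2.23% and 2.34% against 9.31% and 10.9% of Krt18 spots. Taking either gene of each pair, 10.1% and 14.4% of the spots with Krt8 or Krt18 also held Krt19 or Krt7 in Ehmt2+/+, and 17.3% and 17.0% did in Ehmt2fl/fl. The order turned when spots were thinned to 500 non-enzyme UMIs, where the mean share was 27.0% in Ehmt2+/+ and 22.0% in Ehmt2fl/fl. Spots with fewer than 500 non-enzyme UMIs were left out there, and the part of that choice of spots was not tested. At that depth the share of Krt8 spots with Krt19 was 23.1% against 10.9%, and the share of Krt8 spots with Krt7 was 5.15% against 13.0%. Spots with neither Krt8 nor Krt18 held Krt19 or Krt7 in 9.79% and 14.4% of cases in Ehmt2+/+ and in 14.6% and 12.8% in Ehmt2fl/fl.

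The observed share of spots with both genes was then divided by the product of the separate shares, where 1 means no association. For Krt8 with Krt19 this ratio was 1.001 and 1.008 in the Ehmt2+/+ sections and 1.15 and 1.16 in the Ehmt2fl/fl sections. For Krt18 with Krt19 it was 1.03 and 1.01 against 1.15 and 1.17. For Krt8 with Krt7 it was 0.992 and 1.01 against 1.08 and 1.11, and for Krt18 with Krt7 0.976 and 0.926 against 1.04 and 1.14. In all 4 pairs both Ehmt2fl/fl sections lay above both Ehmt2+/+ sections, which held for 10.3% of 7455 genes paired with Krt8 and for 12.4% of those paired with Krt18. The exact permutation test (two-sided) gave p = 0.333 for each pair, the smallest possible with 2 against 2 sections.

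Among all genes with a UMI in at least 1% of spots in every section, the median ratio with Krt8 was 1.01 and 0.987 in the Ehmt2+/+ sections and 0.972 and 0.958 in the Ehmt2fl/fl sections. Krt19 exceeded 98.8% and 99.6% of these genes in its ratio with Krt8 in the Ehmt2fl/fl sections, against 43.5% and 61.6% in the Ehmt2+/+ sections. Krt7 exceeded 93.1% and 97.9% against 35.2% and 62.4%. When the expected share was taken within steps of enzyme share, the mean ratio in Ehmt2fl/fl went from 1.16 to 1.09 for Krt8 with Krt19 and from 1.10 to 1.09 for Krt8 with Krt7, with Ehmt2+/+ means of 0.999 and 1.003. Krt8 and Krt18 with each other had ratios of 0.998 and 1.05 in Ehmt2+/+ and 1.08 and 1.15 in Ehmt2fl/fl, and Krt7 with Krt19 had 0.921 and 1.07 against 1.03 and 1.12. Within steps of enzyme share the means for Krt8 with Krt18 were 1.02 in Ehmt2+/+ and 1.04 in Ehmt2fl/fl, and the genotypes overlapped.

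**Figure D4:**
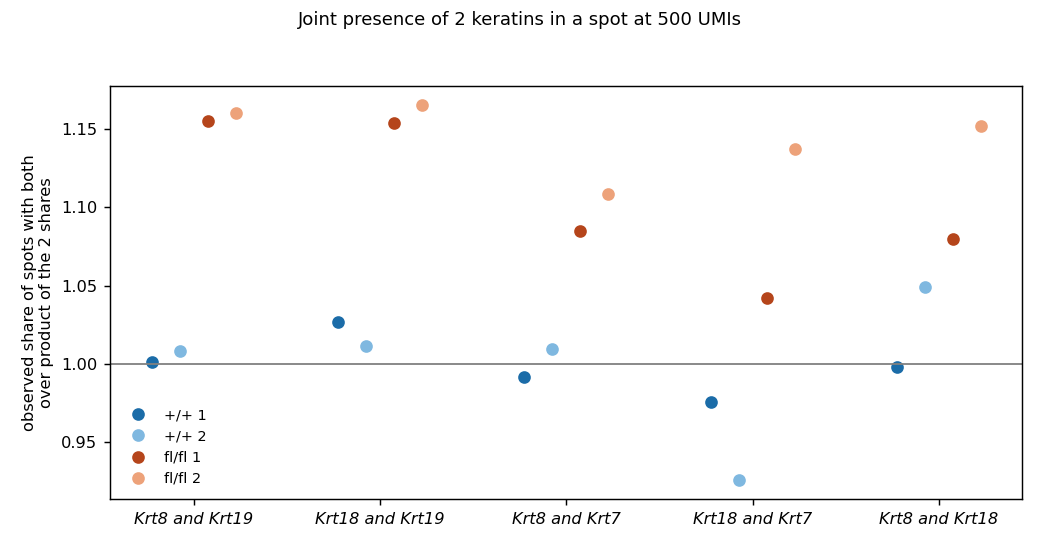
Observed share of spots with both genes over the product of the 2 separate shares (y axis, not from 0) for 5 pairs of keratins at 500 UMIs a spot; each point is a section and the line marks 1. For the 4 pairs with Krt19 or Krt7 both Ehmt2fl/fl sections lay above both Ehmt2+/+ sections.

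Spots were also split by marker lists. Spots with at least 2 UMIs in 500 of an injury list made up most spots (5606 to 7492 a section, against 62 to 856 others), and the clusterin gene Clu, a secreted chaperone raised in damaged epithelium, gave 86.5% to 98.3% of the UMIs of that list. The injury list itself followed the enzyme share, from 9559, 7998, 14662 and 11092 non-enzyme CPM in the enzyme-poor spots to 42791, 27284, 39057 and 34494 in the enzyme-rich spots (Ehmt2+/+ replicates 1 and 2, Ehmt2fl/fl replicates 1 and 2), and the part of enzyme share in the next values was not tested. In these spots 5 of the 6 keratins were called higher, where 3.09% of 19957 genes were. The log2 difference was 1.44 ± 0.21 for Krt8 (edgeR adjusted p = 1.38e-08), 1.51 ± 0.21 for Krt18 (edgeR adjusted p = 1.23e-09), 1.44 ± 0.25 for Krt19 (edgeR adjusted p = 2.18e-06), 1.44 ± 0.34 for Krt20 (edgeR adjusted p = 0.00217) and 0.86 ± 0.26 for Krt7 (edgeR adjusted p = 0.0343). Krt23 was at 0.47 ± 0.32 (edgeR adjusted p = 0.511), and the median over all genes was 0.07. Krt7 and Krt20 lost the call without any 1 of Ehmt2+/+ replicate 2, Ehmt2fl/fl replicate 1 and Ehmt2fl/fl replicate 2 (log2 differences of at least 0.61 for Krt7 and of 1.18 to 1.49 for Krt20), while Krt8, Krt18 and Krt19 kept it without any 1 section. Of all genes, 617 were called higher with all sections. Without these 3 sections in turn, 109 of 19979, 79 of 19903 and 95 of 19694 genes were. edgeR called no interaction with genotype for a member at this limit, where 0 of 19957 genes had a called higher term and 1 a called lower term. DESeq2 called a higher term for 2 members, as for 21 of 19957 genes. At a limit of 3 UMIs edgeR called a higher term for 1 member, as for 10 of 19947 genes.

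Islet spots, with at least 10 UMIs in 500 from islet hormone and secretory genes (84 to 272 a section) were set against the rest, and no member was called, where 0.690% of 19845 genes were. Krt7 was at 0.63 ± 0.40 on the log2 scale (edgeR adjusted p = 0.669; DESeq2 gave 0.96 and an adjusted p of 0.0083), and the other members were at -1.11 to -0.73. The interaction of islet class and genotype was called for Krt8 (1.36 ± 0.34, edgeR adjusted p = 0.00819), Krt18 (1.61 ± 0.35, edgeR adjusted p = 0.00186) and Krt19 (1.28 ± 0.41, edgeR adjusted p = 0.0495), where 3.89% of all genes had a called higher term and the median gene was at 0.80. DESeq2 called no gene in this interaction (358 at an unadjusted p under 0.05). The spots outside the islet class made up most of each section, and the sections of the genotypes differed in enzyme share. The part of that difference in the interaction was not tested.

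The fixed limits left under 20 duct, mesothelium, fibroblast or macrophage spots in at least 1 section. The 5% of spots with the largest share of each list were therefore taken, a rule chosen after the data had been seen. In the Ehmt2+/+ sections 307 and 394 duct-list spots were taken in this way, whereas 2 and 11 spots met the fixed duct limit. In Ehmt2+/+ replicate 1 the mesothelium list held fewer UMIs (5.98 CPM) than the 307 spots taken for it, so some held none. These comparisons therefore say little about duct or mesothelial cells there. No member was called in the spots of any of these 4 lists, where 0.0151% (duct), 0.0251% (mesothelium), 0.0502% (fibroblast) and 0.0201% (macrophage) of all genes were. In duct-list spots Krt7 was at 0.03 and Krt19 at -0.15 on the log2 scale, against a median of -0.17 over all genes. In fibroblast-list and macrophage-list spots all 6 members had negative differences, with medians of -0.74 and -0.65 against -0.18 and -0.17 over all genes. Without Ehmt2+/+ replicate 1, Krt8 and Krt18 were called lower in the mesothelium-, fibroblast- and macrophage-list spots, by -0.38 to -0.56. In the same order of lists, 14 of 19769, 32 of 19833 and 46 of 19822 genes were called lower there. Without Ehmt2fl/fl replicate 2, Krt18 was called lower in the fibroblast-list spots, by -0.66, as were 34 of 19716 genes.

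**Figure D5:**
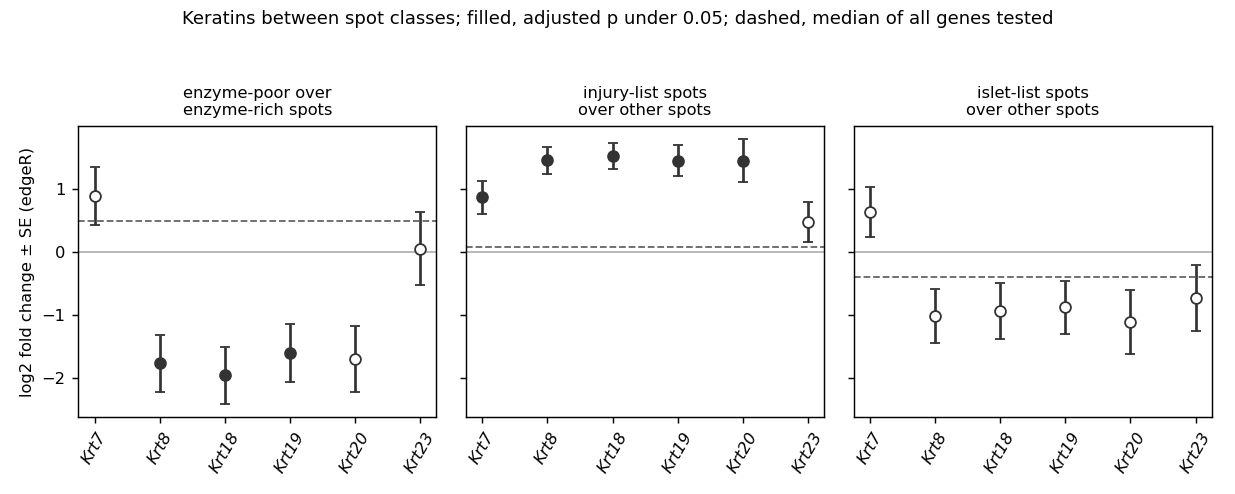
Log2 fold change of each keratin with its SE (edgeR, section as a block) between spot classes; filled points passed an adjusted p of 0.05 and dashed lines give the median of all genes tested. Krt8, Krt18, Krt19 and Krt20 lay together in each of the 3 comparisons, and Krt7 lay apart from them in the enzyme and islet comparisons.

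From spot to spot the members went with different genes. Over the 6144 to 7871 spots of each section, Krt8 correlated best with Clu (mean Pearson r over the 4 sections 0.213), followed by the enzyme genes Cela3b, Ctrb1 and Sycn (0.188 to 0.196). Krt18 went with the enzyme genes 2210010C04Rik, a trypsin gene, Cpa1, Cela2a and Cel and with Reg1, a secreted acinar protein (0.226 to 0.243). Krt19 went with Cela1, 2210010C04Rik, Cela2a, Cpa1 and Cel, but more weakly (0.101 to 0.106), and Krt20 with Cel, Reg1, Cpa1, Cela2a and Cela1 (0.0632 to 0.0711). For Krt7 the leading genes were Ins1, Ins2, Iapp and Chga, which mark islets, and Atp1b1, a sodium pump subunit (0.066 to 0.0746), and for Krt23 no gene exceeded 0.0297. When levels were taken over non-enzyme UMIs, Spp1 and Mmp7, the first a secreted duct protein and the second a protease of injured epithelium, were among the 5 for Krt7, at 0.0598 and 0.0576. Spots of a section share its depth and makeup, values this low in sparse counts show no relation by themselves, and no test was made. Between members the highest mean r was that of Krt8 and Krt18, at 0.118, and that of Krt7 with any other member was at most 0.0374.

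The remaining keratins were close to background. Of 47 other keratin genes, 0 were above the highest olfactory receptor gene in all 4 sections and 43 were above it in none. The 5 with the highest mean level were Krt80 (5.12, 14.4, 33.9 and 35.7 CPM in the order Ehmt2+/+ replicates 1 and 2, Ehmt2fl/fl replicates 1 and 2), Krt36, Krt13, Krt87 and Krt42. In Ehmt2+/+ replicate 1, where background was lowest, Krt80 was at 5.12 and the other 4 at 0.297 to 0.891. The 6 members held 99.2% of all keratin UMIs in that section and 74.7% to 88.3% in the others.

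Genes whose products bind keratin filaments or anchor them at cell contacts were taken as a list of 12. Of these, 6 were above every olfactory receptor gene in all sections. The 4 with the highest mean level were Plec (plectin, a filament linker; 87.0, 100.1, 243 and 299 CPM), Jup (plakoglobin; 182, 160, 183 and 192), Pkp3 (plakophilin 3; 41.9, 69.3, 139 and 102) and Dnajb6 (a chaperone that binds Krt18; 11.9, 29.9, 51.5 and 58.1). Jup lay between 160 and 192 in all of them. All 4 genes were higher in both Ehmt2fl/fl sections, Jup by a narrow margin, as were 91.8% of 20053 genes. None of the 12 was called between genotypes or between enzyme-poor and enzyme-rich spots. In injury-list spots 3 of 12 were called higher, where 3.09% of all genes were, namely Jup (log2 difference 1.32 ± 0.24, edgeR adjusted p = 2.22e-05), Pkp3 (1.22 ± 0.27, edgeR adjusted p = 0.00121) and Dsp, the gene of desmoplakin (1.39 ± 0.33, edgeR adjusted p = 0.00281), and the median over the 12 was 0.72. The count was 1 without Ehmt2+/+ replicate 2, 2 without either Ehmt2fl/fl section and 5 without Ehmt2+/+ replicate 1. Of all genes, 109 of 19979 were called higher without Ehmt2+/+ replicate 2. Without Ehmt2fl/fl replicates 1 and 2 in turn, 79 of 19903 and 95 of 19694 were, and without Ehmt2+/+ replicate 1, 1247 of 19875.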

How the data were processed

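Spatial gene expression was measured with the CytAssist Visium workflow on formalin-fixed, paraffin-embedded pancreas. The deposited values are raw UMI counts per feature and spot, made by the authors with Space Ranger 2.0.1 (per the file headers) on the mm10 reference with the mouse Visium probe set. Later steps of the authors (removal of empty spots, SCTransform) were not used. Of 32589 features, 304 with deprecated probes were left out. Spots with at least 500 UMIs were kept; 13898 barcodes occur in all 4 sections because slides carry the same printed positions. No doublet caller was run on spots.

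Counts were summed per section, or per section and spot class, and tested with edgeR 4.0.16 (quasi-likelihood fit with TMM; genes kept by filterByExpr at min.count 10; p-values adjusted after Benjamini-Hochberg and called under 0.05) in R 4.3.3, with DESeq2 1.42.0 as an alternative. The fits of the class and enzyme comparisons leave out the enzyme genes and the list that defines the class, and classes were set on spots thinned to 500 UMIs. Classes needed at least 20 spots on each side in every section. The SE given with an edgeR log2 difference is its absolute value divided by the square root of the quasi-likelihood F. Shares at 500 UMIs are exact hypergeometric expectations, and correlations use the natural log of 1 plus the scaled UMIs of a spot. Scripts were tested on simulated data. Total depth sets the counting error only, and the shallowest section had 6643747 UMIs in kept spots.

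Named genes were the 6 members, the 5 other keratins and 4 partner genes with the highest mean level, and up to 5 genes per member with the highest mean r (1 such result is not reported here); the other genes and the ratios were named after their values were seen. Members and lists were chosen with earlier results of these data known. p-values measure the spread between sections. Each section is taken here to stand for 1 mouse, and the genotype labels do not show whether it does. RefSeq promoters matched 5 of 6 members. Alternatives chosen after seeing the data were the slide block, ranked classes, intermediate enzyme share, ratios, background subtraction and enzyme-free library sizes without TMM.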

Additional observations from a re-analysis of the deposited data

Results flagged for a closer look

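The difference between islet-list spots and the other spots differed between the genotypes for Krt8, Krt18 and Krt19, by the edgeR test of the interaction itself. The term (Ehmt2fl/fl minus Ehmt2+/+, log2) was 1.36 for Krt8, 1.61 for Krt18 and 1.28 for Krt19. The median over all genes tested was 0.80, and 3.89% of them had a called higher term. With a limit of 15 in place of 10 islet UMIs the same 3 genes were called, at 1.72, 1.90 and 1.42. At that limit 988 of 19894 genes had a called higher term, and the median gene was at 0.98. DESeq2 gave 0.69, 0.93 and 0.56 and called none of them. The other spots made up most of each section. Over all kept spots, enzymes held 65.4% and 54.6% of UMIs in the Ehmt2+/+ sections and 22.9% and 22.1% in the Ehmt2fl/fl sections. The part of that difference in the term was not tested.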

How the results depend on the processing

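The labels give no replicate numbers; the slide, shared by 1 section of each genotype, was taken as a block between genotypes and changed no call of a member. Of 440 alternatives for single genes, 367 kept direction and side of the threshold, 21 passed it newly, 21 no longer passed it and 31 turned the direction. Between genotypes 0 members were called, against 3 with DESeq2, 1 without TMM factors and 0 to 5 when a section was left out. DESeq2 put Krt7 at -0.39, and leaving out a section moved Krt7 between -0.66 and 1.13, Krt20 between -1.57 and 0.44 and Krt23 between -1.64 and 0.61. Krt20 and Krt23 turned to 1.35 and 1.39 without TMM factors and to 0.36 and 0.38 with the enzymes also left out. In enzyme-poor against enzyme-rich spots 3 members were called, against 0 to 4 with a section left out (Krt23 from -0.44 to 0.55). The DESeq2 genotype terms there were -0.21 for Krt7 and -0.52 for Krt20. For the injury list 5 members were called, 3 with DESeq2 (which gave Krt20 no adjusted p and called 322 of 19957 genes higher) and 3 to 5 with a section left out. Its genotype term called 0 members, 2 with DESeq2 and 1 at the higher limit, with Krt23 at 0.49 and 0.14. Over all genes the called higher terms numbered 21 of 19957 with DESeq2 and 10 of 19947 at the higher limit. DESeq2 called 1 member in islet spots and 0 genotype terms, where edgeR called 3, and put Krt7 and Krt23 at -0.038 and -0.016. In the ranked spots, leaving out a section gave 0 to 2 called members for mesothelium, fibroblast and macrophage and 0 for duct. In duct-list spots Krt7 ran from -0.13 to 0.37, Krt8 from -0.33 to 0.039, Krt18 from -0.28 to 0.15, Krt19 from -0.41 to 0.13 and Krt20 from -0.25 to 0.26, and Krt7 was at -0.27 in the top 2% of spots. Krt7 ran from -0.21 to 0.062 in mesothelium-list spots and from -0.58 to 0.046 in fibroblast-list spots. Without thinning, where shares of spots move with depth, Krt20 and Krt23 turned to -1.76 and -1.47 percentage points. Krt18 and Krt19 still lay apart between the genotypes there, and the share of all genes that did so was not counted. The 0 calls in islet spots held without any 1 section. Across these results the cause of each change was not tested, except that leaving out a section leaves fewer sections. With Ehmt2+/+ replicate 1 left out, the lone Ehmt2+/+ section was assumed to vary like the Ehmt2fl/fl sections. The comparison of under 20% against at least 60% enzyme UMIs could not be fitted (1 spot in the smallest class), nor could the fixed limits of 4 lists. The depth limits Krt20 and Krt23 most, with 90 to 398 UMIs a section outside Ehmt2+/+ replicate 1.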

Other observations

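Krt7 was also high against Krt8 in the Ehmt2fl/fl sections. There were 0.0405 and 0.0448 UMIs of Krt7 for each UMI of Krt8 in the Ehmt2+/+ sections and 0.255 and 0.179 in the Ehmt2fl/fl sections, a fold of 6.30 on slide 1 and 3.99 on slide 2. In enzyme-rich spots the folds were 1.71 and 1.41, and in enzyme-poor spots 0.453 and 0.905. Over all spots the CPM fold on slides 1 and 2 was 9.42 and 2.24 for the median gene and 0.718 and 1.09 for Krt8. Most genes were therefore high against Krt8 in the Ehmt2fl/fl sections, and against Krt19 too. Krt20 followed the same order against Krt19, with ratios of 0.121 and 0.0732 in Ehmt2+/+ and 0.299 and 0.376 in Ehmt2fl/fl, and its folds over Ehmt2+/+ in enzyme-rich spots were 2.74 and 7.53, from 3 and 12 UMIs of Krt20 in the Ehmt2fl/fl sections. At 500 UMIs a spot Krt20 and Krt18 were found together 0.988 and 1.03 times as often as the product of their shares in Ehmt2+/+ and 1.22 and 1.20 times in Ehmt2fl/fl, and within steps of enzyme share the Ehmt2fl/fl mean was 1.06.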
